A study of Rattus norvegicus with 18 samples.

Results

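The comparison described here asks how gene expression in the bladder muscle of rats with spinal cord injury (SCI) differed between inosine treatment and vehicle treatment. It rests on 6 of the 18 libraries of the series, the 3 detrusor libraries labelled SCI with inosine (SCI-inosine) and the 3 detrusor libraries labelled SCI with vehicle (SCI-vehicle). The members were chosen by these labels alone. Both groups were male Sprague Dawley rats of WT genotype, 6 to 7 weeks of age, in which the spinal cord was completely transected at thoracic level 8. SCI-inosine rats received inosine at 225 mg/kg per day and SCI-vehicle rats the same volume of sodium bicarbonate buffer, both by daily intraperitoneal injection for 8 weeks. Uninjured rats without treatment (Control, 3 detrusor libraries) and the mucosa of the same 3 groups (9 libraries) served as reference. Bladders were microdissected into detrusor and mucosa after the treatment period, and total RNA was depleted of ribosomal RNA and sequenced. The labels place all samples in batch 1 and do not say whether a detrusor and a mucosa library of the same number came from 1 rat, and p-values measure only the spread between these samples.

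The detrusor is the smooth muscle coat of the bladder wall, which relaxes while the bladder fills and contracts to empty it, with nerves, vessels, fibroblasts and resident immune cells between the muscle bundles. The mucosa is the urothelium with the connective tissue beneath it. Injury of the cord above the sacral segments disconnects the bladder from supraspinal control, and the bladder wall thickens as it contracts against a poorly coordinated outlet. Inosine arises when adenosine deaminase removes the amino group of adenosine, and is broken down to hypoxanthine and then to uric acid.

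The count table names its 32754 genes by Ensembl identifiers of the rat, of which 0 could be paired with a symbol here. Marker genes of muscle, urothelium, nerve and immune cells were therefore not analysed here. The labelled tissue was checked instead by genes that differed more than 4-fold between control mucosa and control detrusor, namely 1731 mucosa-enriched and 812 detrusor-enriched genes among the 15740 tested. SCI-inosine detrusor libraries held between 5302340 and 6810496 counts, SCI-vehicle libraries between 5087707 and 6575592, and Control libraries between 4101639 and 6163986.

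Of the 6 libraries, 2 stood apart from the others. A mucosa share was computed from the 315 mucosa-enriched genes above 50 CPM (counts scaled to library size) in control mucosa, as the median position of their level on a scale where control detrusor is 0% and control mucosa 100%. The share was 25.9% in SCI-vehicle replicate 1. It was 2.33% and 1.59% in SCI-vehicle replicates 2 and 3, and 3.94%, 10.2% and 8.56% in SCI-inosine replicates 1, 2 and 3. Thus 1 SCI-vehicle library lay above all SCI-inosine libraries and the other 2 lay below all of them. In bulk tissue, a larger share of mucosal cells and more RNA of these genes per cell cannot be told apart.

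The second library was SCI-inosine replicate 2. Only 14126 genes had a count in it, and 16475 to 17842 genes did in the other 8 detrusor libraries. In it, 968 tested genes were at 0 that had counts in all of the other 8 detrusor libraries, and the corresponding number in each other library was 7 to 80. Of these 968 genes, 930 had counts in the mucosa library labelled SCI-inosine replicate 2. Among genes with a mean of 10 to 20 counts in the other 8 libraries, 17.9% were at 0 in SCI-inosine replicate 2 against 0.0827% to 2.33% elsewhere. The SD of their log2 level around the mean of the other libraries was 1.91 in this library and 0.646 to 0.996 in the others, so its low-count genes scattered more widely at a similar total count. It was the library farthest from the other 2 of its group for 52.1% of genes tested.

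**Figure D1:**
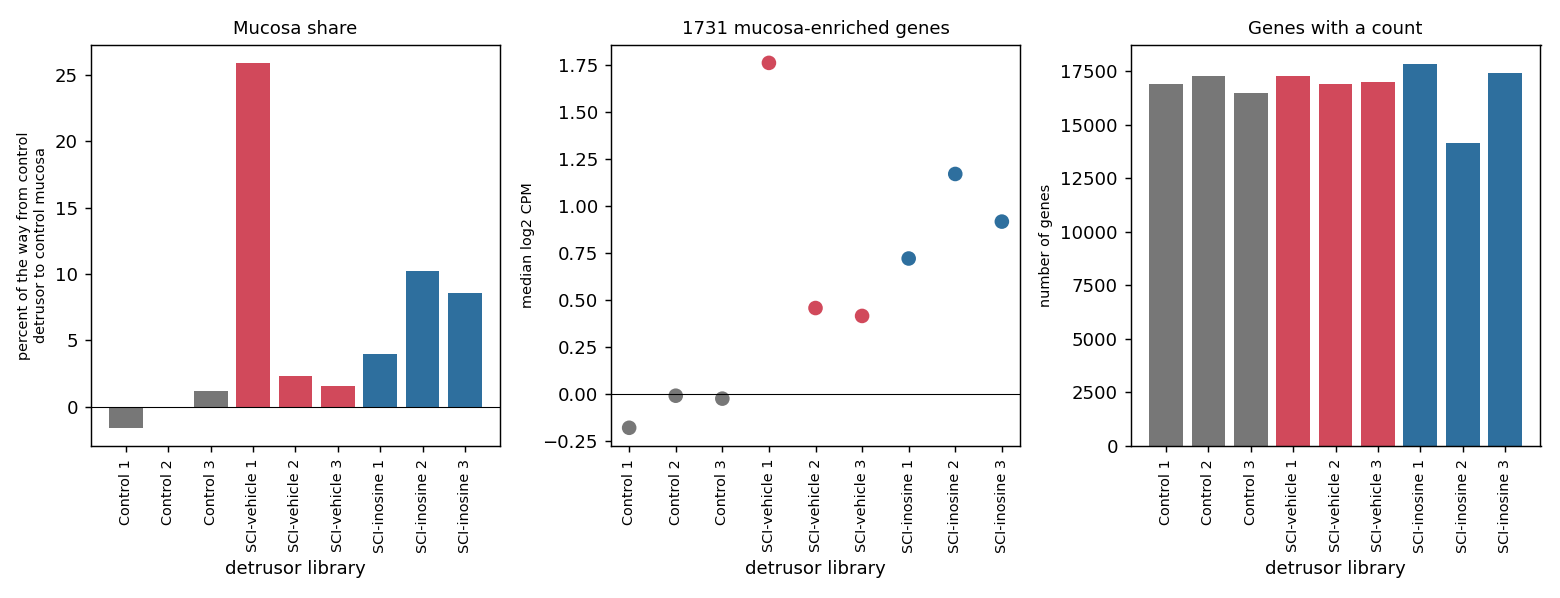
The panels show, for each of the 9 detrusor libraries, the mucosa share in percent, the median log2 CPM of the 1731 mucosa-enriched genes and the number of genes with a count (grey, Control; red, SCI-vehicle; blue, SCI-inosine). SCI-vehicle replicate 1 has the highest mucosa share, at 25.9%, and SCI-inosine replicate 2 the fewest genes with a count, 14126.

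No gene passed an adjusted p-value of 0.05 between SCI-inosine and SCI-vehicle detrusor in the quasi-likelihood test of edgeR (0 of 15740, 0%). The smallest adjusted p-value was 0.0589, and the next was 0.952. At an unadjusted p-value under 0.05, the same test gave 689 genes (4.38%), of which 420 were higher (2.67%) and 269 lower (1.71%) in SCI-inosine. An equal spread of p-values over the genes tested would place 787 genes there, and the side of this number on which the count fell depended on the fit. The count was 793 without SCI-inosine replicate 3, 803 with the likelihood ratio test of edgeR and 806 with the mucosa share as a covariate. It was 1119 without SCI-inosine replicate 1 and 1150 with all 18 libraries in one model. At unadjusted p-values under 0.01 and 0.001 there were 133 genes (0.845%) and 10 genes (0.0635%). When a log2 fold change of more than 0.5 was also required, 531 genes remained (3.37%), 354 higher (2.25%) and 177 lower (1.12%). DESeq2 gave 10 genes at an adjusted p-value under 0.05, 3 higher and 7 lower, and 654 at an unadjusted p-value under 0.05. All 10 had an unadjusted p-value under 0.05 in the same direction in edgeR, and for 9 of them the groups did not overlap. Over all genes tested, 9.29% had no overlap. The 10 were chosen on the same counts, so these numbers are a description and not a test. In 3 of the 10, at least 1 of the 6 libraries was at 0. The likelihood ratio test of edgeR gave 7 genes at an adjusted p-value under 0.05.

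**Figure D2:**
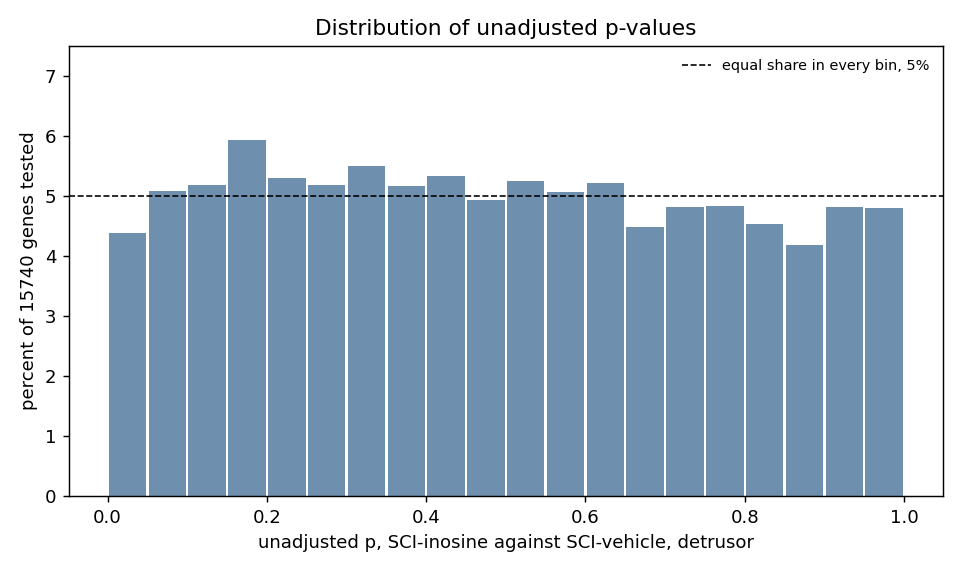
The bars show the percent of the 15740 genes tested in each interval of the unadjusted p-value for SCI-inosine against SCI-vehicle in detrusor, in steps of 0.05, with a dashed line at an equal share of 5%. The first interval holds 4.38% of the genes (689), below the line in this fit, whereas 1150 genes lay there with all 18 libraries in one model.

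The number at the unadjusted threshold depended on the libraries. It was 536 to 1119 when 1 of the 9 detrusor libraries was left out, with the highest number, 1119 (652 higher, 467 lower), without SCI-inosine replicate 1. Without SCI-vehicle replicate 1 it was 721 (468 higher, 253 lower), without SCI-inosine replicate 2 it was 602 (384 higher, 218 lower), and without both it was 750 (487 higher, 263 lower). No gene had an adjusted p-value under 0.05 in any of these fits. Of the 420 higher genes, 204 to 342 were also higher at the unadjusted threshold when 1 of the 6 compared libraries was left out, and of the 269 lower genes 135 to 177 were also lower. The lowest of these numbers came without SCI-inosine replicate 2, and 107 higher and 51 lower genes passed in all 6 of the reduced fits. SCI-inosine replicate 2 was at 0 for 2121 of all 15740 genes tested, for 47 of the 269 lower genes and for 5 of the 420 higher genes. It was at 0 for 10 of the 51 lower genes and for 0 of the 107 higher genes that passed in all reduced fits.

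For 1462 genes (9.29% of those tested), SCI-inosine and SCI-vehicle detrusor had no overlap between their libraries. With 3 libraries per group, such separation often arises without a difference between groups, so this number is a description and not a test. SCI-inosine lay above SCI-vehicle for 775 of these (4.92%) and below it for 687 (4.36%). Differences of more than 2-fold were fitted for 782 genes higher and 884 lower in SCI-inosine, but only 213 and 91 of these had an unadjusted p-value under 0.05. The median log2 fold change over all genes tested was -0.03.

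The precision behind these numbers rose with the level of the gene. The median standard error of the log2 fold change was 1.33 for genes with a mean log2 CPM under 0, 0.79 between 0 and 2, 0.34 between 2 and 4, 0.19 between 4 and 6 and 0.15 above 6. For 8804 genes (56.0%), the 95% confidence interval lay wholly within a 2-fold difference in either direction, so a larger difference was outside that interval. This held for 95.1% of the 2759 genes above a log2 CPM of 6 and for 90.5% of the 4767 genes between 4 and 6. It held for 0.812% of the 2832 genes between 0 and 2 and for 0% of the 1592 below 0, where a difference of 2-fold was mostly not detectable at this depth and spread. Without SCI-inosine replicate 2, it held for 1.84% of the genes between 0 and 2, and their median standard error was 0.64. Of the genes at an unadjusted p-value under 0.05, those above a log2 CPM of 6 were evenly divided (44 higher, 44 lower, 1.59% each). Between 0 and 2 there were 117 higher (4.13%) and 35 lower (1.24%). Over all genes tested, 2.67% were higher and 1.71% lower. Leaving out SCI-vehicle replicate 1 gave 33 higher (1.2%) and 61 lower (2.21%) genes above 6, against 2.97% and 1.61% of all genes. Between 0 and 2 it gave 114 (4.03%) and 25 (0.883%). Leaving out SCI-inosine replicate 2 gave 38 (1.38%) and 35 (1.27%) above 6, against 2.44% and 1.39% of all genes. Between 0 and 2 it gave 98 (3.46%) and 39 (1.38%). Leaving out both gave 26 (0.942%) and 50 (1.81%) above 6, against 3.09% and 1.67% of all genes. Between 0 and 2 it gave 145 (5.12%) and 36 (1.27%). The biological coefficient of variation of the fit was 26.5%.

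**Figure D3:**
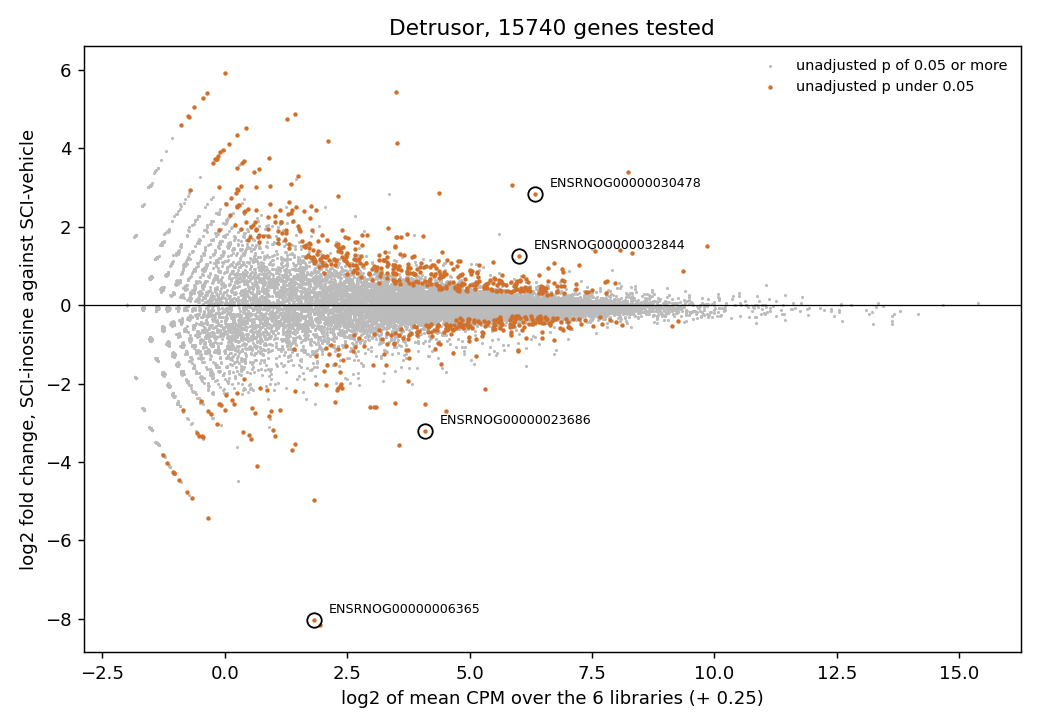
Each point is 1 of the 15740 genes tested, with the log2 of its mean CPM over the 6 libraries on the x axis and the fitted log2 fold change of SCI-inosine against SCI-vehicle in detrusor on the y axis (orange, unadjusted p under 0.05). Circles mark the 4 genes described by identifier, and the fitted value of ENSRNOG00000006365, which had a count of 0 in all 3 SCI-inosine libraries, depends on the prior count and is not a bound.

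The gene with the smallest p-value, ENSRNOG00000006365, stood out by its counts and was chosen after its values were seen. Its counts in detrusor were 35, 30 and 35 in SCI-vehicle, 18, 45 and 19 in Control, and 0, 0 and 0 in SCI-inosine. All 3 SCI-inosine libraries were therefore without a read, and the other groups lay at 4.36 to 8.93 CPM. In SCI-inosine detrusor it was at least 35.7-fold lower than in SCI-vehicle, against a floor of 3 counts over the group, with an unadjusted p of 3.74e-06 and an adjusted p of 0.0589 by edgeR's quasi-likelihood test. In mucosa, its counts were 61, 43 and 57 in SCI-vehicle, 38, 62 and 28 in Control, and 0, 1 and 1 in SCI-inosine. There it was 66.8-fold lower in SCI-inosine than in SCI-vehicle (95% counting interval 18.2 to 557, which covers counting error only) and had an adjusted p of 0.0203, the only gene past 0.05 in mucosa (1 of 15740, 0.00635%). In a model of all 18 libraries, its adjusted p for detrusor was 0.000864 by the same edgeR test, and over 20 alternatives it ranged from 1.82e-12 with the likelihood ratio test to 0.565 with a replicate block, and it was under 0.05 in 5 of them. DESeq2 gave an adjusted p of 1.21e-05. The difference in SCI-vehicle against Control detrusor was a log2 fold change of 0.09 (adjusted p = 0.969, edgeR).

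The pattern of this gene was searched for among all genes listed. Since the pattern was taken from its own counts, the search is a description and not a test. It was the only 1 of 32754 with at most 1 count in each of the 6 SCI-inosine libraries and at least 10 counts in each of the other 12. No gene had the same pattern for Control or for SCI-vehicle (0 genes each), and 0 genes showed the reverse, with at least 10 counts in each library of 1 group and at most 1 in each of the other 12. In detrusor alone, it was also the only gene with 0 counts in all 3 SCI-inosine libraries and at least 10 in each SCI-vehicle library, and no gene had the reverse (0 genes).

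Next, the genes with the smallest p-values among those of at least 5 CPM without overlap between the groups were examined. ENSRNOG00000032844 was at 78.1, 101 and 94.8 CPM in SCI-inosine replicates 1 to 3 and at 31.2, 28.5 and 53.3 CPM in SCI-vehicle. All SCI-inosine libraries lay above all SCI-vehicle and Control libraries, and Control was at 36.6, 29.4 and 47.4 CPM. The log2 fold change was 1.26 (SE 0.25, 95% confidence interval 0.72 to 1.80), with an unadjusted p of 0.000309 and an adjusted p of 0.952 by edgeR's quasi-likelihood test. This gene was more abundant in mucosa, at 154 ± 26.6 CPM in Control mucosa against 37.8 ± 9.06 CPM in Control detrusor (SD, n = 3), a log2 difference of 2.04, and so belonged to the mucosa-enriched class. SCI-vehicle replicate 1, the library with the highest mucosa share, was at 31.2 CPM, and the log2 fold change without it was 1.15. In mucosa, the log2 fold change was 0.64 (adjusted p = 0.882, edgeR), and SCI-inosine and SCI-vehicle overlapped. Over 19 alternatives the log2 fold change in detrusor for ENSRNOG00000032844 ranged from 1.06 to 1.60. The adjusted p-value was 0.0112 with the likelihood ratio test of edgeR and 0.0134 with DESeq2, and reached 1 without SCI-inosine replicate 2.

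ENSRNOG00000030478 was at 89.4, 173 and 163 CPM in SCI-inosine and at 9.19, 17.9 and 32.0 CPM in SCI-vehicle. Control libraries were at 125, 28.4 and 139 CPM, so that 2 of them lay among the SCI-inosine libraries and 1 lay within the range of SCI-vehicle. The log2 fold change of SCI-inosine against SCI-vehicle was 2.83 (SE 0.56, 95% confidence interval 1.59 to 4.07), with an unadjusted p of 0.000372 and an adjusted p of 0.952 by edgeR's quasi-likelihood test. SCI-vehicle against Control gave a log2 fold change of -2.27 (adjusted p = 0.177, edgeR). Both comparisons use the same SCI-vehicle libraries, so that the opposite signs are not independent. In mucosa, ENSRNOG00000030478 had a log2 fold change of 0.57 (adjusted p = 0.91, edgeR) and the groups overlapped. The difference between the tissues was 2.28 on the log2 scale, with an unadjusted p of 0.0187 and an adjusted p of 1 in the edgeR interaction test. The gene was chosen by its detrusor values, which enter this contrast, so the unadjusted p does not measure a difference between the tissues. Over 20 alternatives, the log2 fold change in detrusor ranged from 2.31 to 3.37. The adjusted p-value was 0.00569 with the likelihood ratio test of edgeR, 0.0386 in its quasi-likelihood test with every gene that had a count, 0.0534 with DESeq2 and 1 without SCI-inosine replicate 2.

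ENSRNOG00000023686 was lower in SCI-inosine, at 4.82, 3.87 and 1.06 CPM, than in SCI-vehicle, at 25.9, 45.6 and 19.6 CPM. Control libraries were at 3.64, 4.17 and 20.5 CPM, of which 2 lay within the range of SCI-inosine and 1 within that of SCI-vehicle. The log2 fold change was -3.20 (SE 0.68, 95% confidence interval -4.69 to -1.71), with an unadjusted p of 0.000594 and an adjusted p of 0.952 by edgeR's quasi-likelihood test. SCI-vehicle against Control, which shares the SCI-vehicle libraries, gave a log2 fold change of 1.74 (adjusted p = 0.291, edgeR). In mucosa, the log2 fold change for ENSRNOG00000023686 was -0.52 (adjusted p = 0.937, edgeR), with overlapping groups. Over 20 alternatives, the detrusor log2 fold change ranged from -3.57 to -2.80. The adjusted p-value was 0.00284 with DESeq2 and 0.0176 with the likelihood ratio test of edgeR, and reached 1 without SCI-inosine replicate 2.

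**Figure D4:**
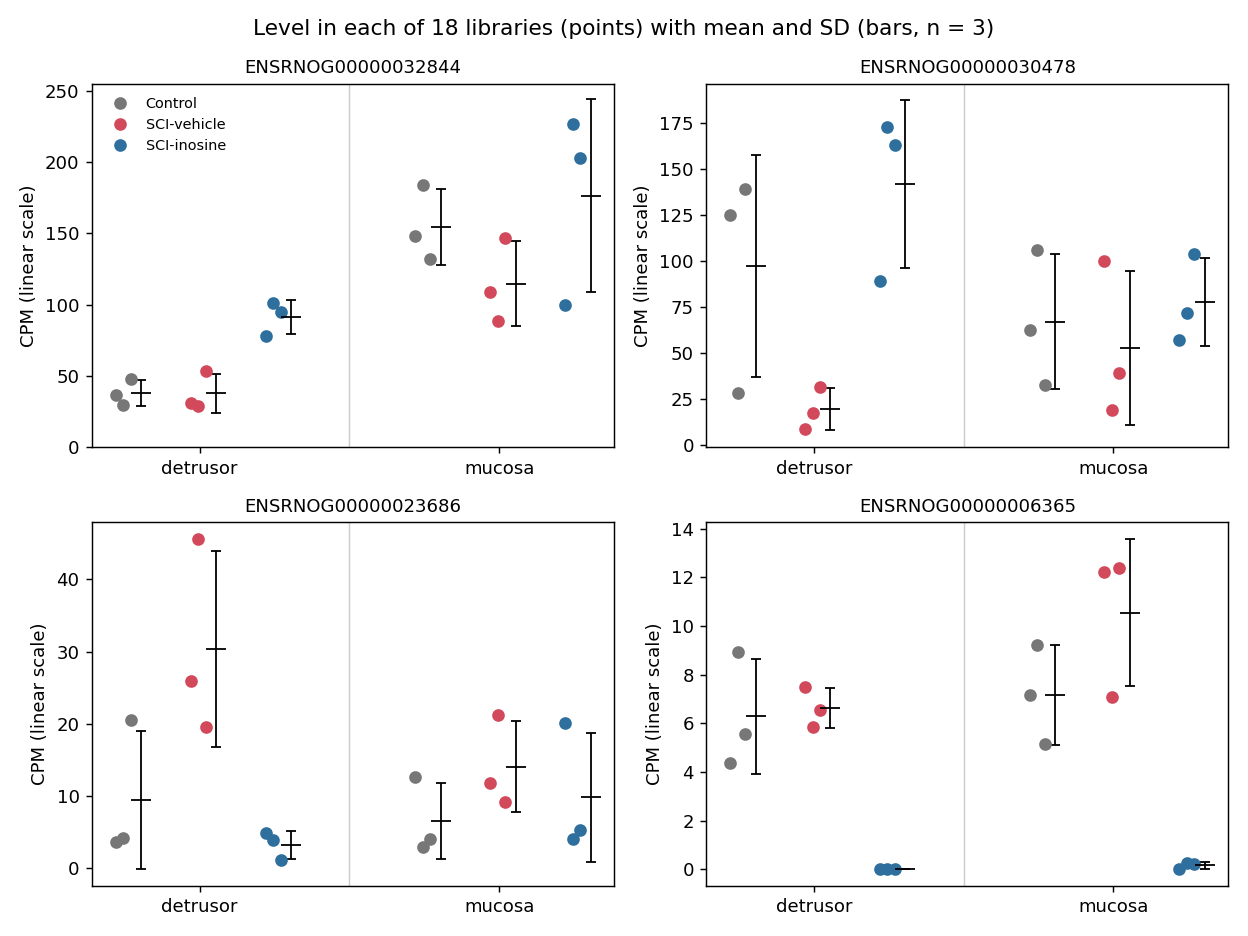
Points show the level in CPM (linear scale) of the 4 genes described by identifier in each of the 18 libraries, by tissue and group, and bars show the mean and SD of 3 libraries. In detrusor, SCI-inosine and SCI-vehicle points are separate for each of the 4 genes, and in mucosa this holds for ENSRNOG00000006365 only.

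The genes were then divided by the tissue in which they are enriched. Among the 1731 mucosa-enriched genes, 66 were higher and 32 lower in SCI-inosine detrusor at an unadjusted p-value under 0.05 (3.81% and 1.85%, against 2.67% and 1.71% of all genes tested). Their median log2 fold change was -0.28, against -0.03 over all genes. The sign of this median turned with 1 library. Without SCI-vehicle replicate 1, the median of the mucosa-enriched genes was 0.48. Of them, 185 were higher (10.7%) and 9 lower (0.52%), against 2.97% and 1.61% of all genes tested. Without both SCI-vehicle replicate 1 and SCI-inosine replicate 2 the median was 0.39. Then 159 were higher (9.19%) and 13 lower (0.751%), against 3.09% and 1.67% of all genes. Without SCI-inosine replicate 2 alone the median was -0.30. There, 52 were higher (3%) and 30 lower (1.73%), against 2.44% and 1.39% of all genes. The median log2 CPM of these genes per library was 0.721, 1.17 and 0.917 in SCI-inosine and 1.76, 0.458 and 0.416 in SCI-vehicle. In Control, it was -0.178, -0.00767 and -0.0232, below every library of both injured groups. The class was defined with these same Control detrusor libraries, which favours genes that are low in them. The position of Control is therefore a description and not a test.

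The detrusor-enriched genes were counted in the same way. Of these 812 genes, 32 were higher (3.94%) and 21 lower (2.59%) at the unadjusted threshold, against 2.67% and 1.71% of all genes tested, with a median log2 fold change of -0.00142. Without SCI-vehicle replicate 1, 17 were higher (2.09%) and 39 lower (4.80%), against 2.97% and 1.61% of all genes, with a median of -0.07. Without SCI-inosine replicate 2, 39 were higher (4.80%) and 17 lower (2.09%), against 2.44% and 1.39% of all genes, and the median was 0.08. The remaining 13197 genes, enriched in neither tissue, held 322 of the higher and 216 of the lower genes (2.44% and 1.64%), and their median log2 fold change was -0.02. It lay between -0.0201 and -0.00528 in these 4 fits. The call count at an adjusted p-value under 0.05 was 1 when mucosa-enriched genes were left out of the test. That gene was ENSRNOG00000006365, with an adjusted p of 0.0466 in the quasi-likelihood test of edgeR. With the mucosa share of each library as a covariate, 0 genes passed the adjusted threshold, and 538 were higher and 268 lower at the unadjusted threshold.

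**Figure D5:**
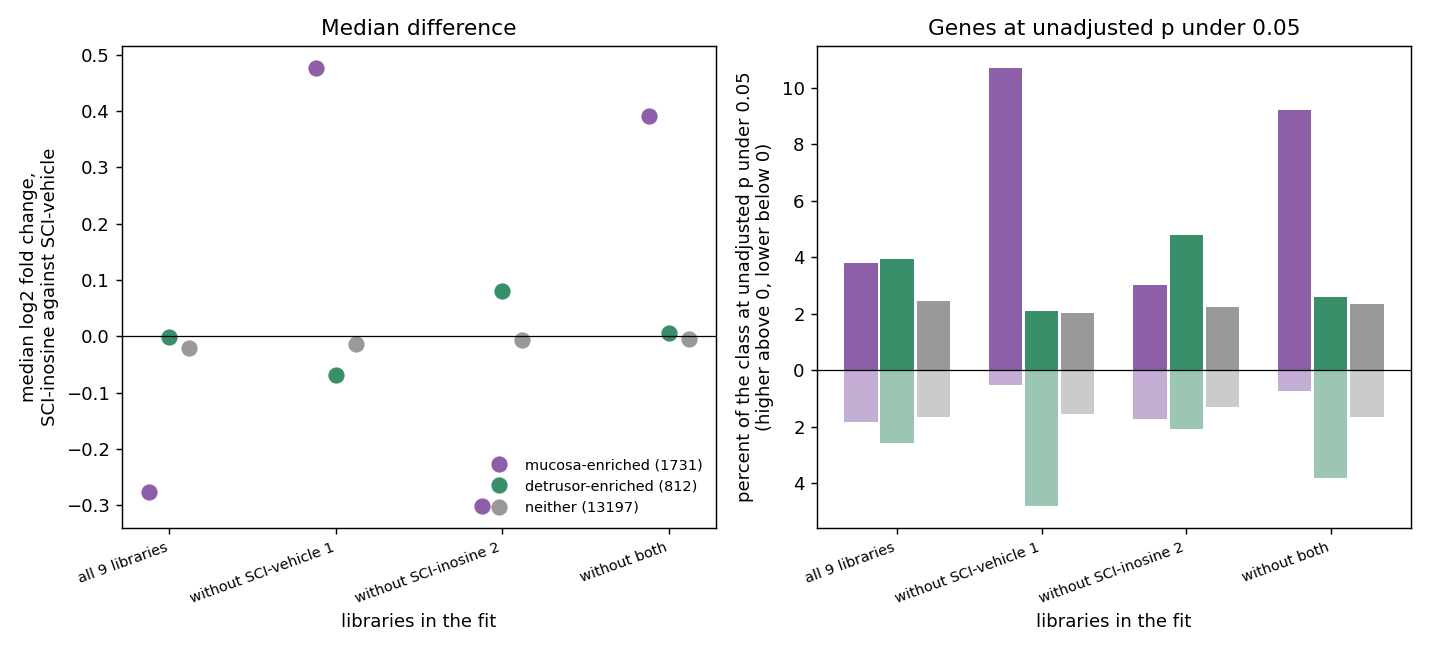
For genes enriched in mucosa, in detrusor or in neither, the left panel shows the median log2 fold change of SCI-inosine against SCI-vehicle in detrusor and the right panel the percent of the class at an unadjusted p under 0.05 (higher above 0, lower below 0, paler), with all 9 libraries and with 1 or both of the libraries that stood apart left out. The median of the mucosa-enriched genes moves from -0.28 to 0.48 without SCI-vehicle replicate 1.

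The same treatment contrast was measured in separate libraries of mucosa, which the choice of detrusor genes did not use. If detrusor and mucosa libraries of the same number came from 1 rat, the tissues would not be independent, and differences between the rats of the groups would be shared by both tissues whatever the treatment. The correlation of residuals between detrusor and mucosa libraries of the same number was positive for all 6 SCI pairs, from 0.00559 to 0.233. The shares of all genes tested are therefore given as a description and not as a level that independent animals would give. Of the 420 genes higher in SCI-inosine detrusor at the unadjusted threshold, 317 (75.5%) had a positive log2 fold change in mucosa, where 49.8% of all genes tested did. Their median log2 fold change in mucosa was 0.19, against 1.02 in detrusor. In mucosa, 47 of the 420 (11.2%) were also higher at an unadjusted p-value under 0.05, against 3.62% of all genes tested, and 2 were lower. Of the 269 lower genes, 167 (62.1%) had a negative log2 fold change in mucosa, against 50.1% of all genes. For them, 16 (5.95%) were also lower at the unadjusted threshold in mucosa, against 1.91% of all genes, and 8 were higher.

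These shares also moved with SCI-vehicle replicate 1. Without it, 259 of 468 higher genes (55.3%) and 120 of 253 lower genes (47.4%) had the same sign in mucosa. At the unadjusted threshold in mucosa, 33 of these higher genes (7.05%) were also higher and 10 (2.14%) were lower. Of these lower genes, 8 (3.16%) were also lower and 13 (5.14%) were higher. Over all genes tested in mucosa, 3.62% were higher and 1.91% lower. Without SCI-inosine replicate 2, 75.8% of the higher and 56.4% of the lower genes had the same sign, and without both libraries 58.1% and 49.8%. At the unadjusted threshold in mucosa, 34 of the higher genes without both libraries were also higher and 4 were lower. Of the lower genes without both libraries, 8 were also lower and 15 were higher. Among the 322 higher and 216 lower genes enriched in neither tissue, 71.4% and 60.6% had the same sign in mucosa. Of the 107 genes that were higher in all 6 reduced fits, 86 (80.4%) were positive in mucosa. Of the 51 that were lower in all of them, 27 (52.9%) were negative there. In mucosa, 14 of the 107 were higher and 0 lower at the unadjusted threshold, and 3 of the 51 were lower and 3 higher. The part of mucosal RNA in these shares was not tested.

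The 47 genes that were higher in both tissues at the unadjusted threshold had a median log2 fold change of 1.43 in detrusor and 1.24 in mucosa, and 27 of them differed by more than 2-fold in both. The 16 that were lower in both had medians of -1.26 and -0.66, and 6 differed by more than 2-fold in both. The genes were chosen by p-value in the same libraries, which favours large differences, so these fold changes are a description only. Of the 47, 33 were enriched in neither tissue, 7 in mucosa and 7 in detrusor. Of the 16, 10 were enriched in neither tissue, 5 in mucosa and 1 in detrusor. These classes held 83.8%, 11% and 5.16% of all genes tested. Whether the difference between SCI-inosine and SCI-vehicle itself differed between detrusor and mucosa was tested in one model of the 18 libraries. By edgeR's quasi-likelihood test, 0 genes had an adjusted p-value under 0.05 for this interaction (0%, smallest adjusted p 1), and 609 had an unadjusted p-value under 0.05 (3.87%). DESeq2 and the likelihood ratio test of edgeR likewise gave 0 genes, with smallest adjusted p-values of 0.0633 and 0.108.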

How the data were processed

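Total RNA was depleted of ribosomal RNA and made into stranded libraries, and paired-end reads from 2 flow cells were combined per sample. The submitters' processing notes name Trim Galore 0.6.10, STAR 2.7.10a, featureCounts 2.0.3 and the build Rnor_6.0, and the annotation release and strand setting are not given in the sources used here, so overlapping, antisense and near-identical genes are uncertain. The authors deposited whole-number read counts for 32754 genes without normalization.

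The 15740 genes that exceeded 1 CPM in 3 or more of the 18 libraries were scaled by TMM and tested with the quasi-likelihood F test (two-sided) of edgeR 4.0.16 (R 4.3.3) on the 9 detrusor libraries by group. Benjamini-Hochberg adjustment ran over all genes tested, with a threshold of 0.05. Mucosa was fitted likewise on its 9 libraries. DESeq2 1.42.0 was an alternative, beside other scalings, filters, thresholds and library sets, a replicate block and covariates. Levels are CPM after TMM scaling over all 18 libraries, and log2 levels have a prior count of 2. The scripts were tested on simulated data.

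Printed genes were to be those with the smallest p-values among genes of at least 5 CPM without overlap, limited to 4 identifiers because 0 could be paired with symbols. ENSRNOG00000006365 was added for its counts. For the same reason, the gene lists, cell type markers and genes named by the study were not analysed here, nor were gene positions. The comparison and gene classes were chosen with earlier results of these data known.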

Additional observations from a re-analysis of the deposited data

How the results depend on the processing

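The count of 0 genes at an adjusted p-value under 0.05 in detrusor was also 0 when any 1 library was left out, with DESeq2's size factors, with filterByExpr, with only the 6 libraries compared, without both libraries that stood apart and with the mucosa share as a covariate. It was 10 with DESeq2, 7 with the likelihood ratio test, 2 with every gene that had a count (ENSRNOG00000006365 lower, ENSRNOG00000030478 higher), and 1, ENSRNOG00000006365, each with all 18 libraries in one model, with mucosa-enriched genes left out and at an adjusted p-value under 0.1. The 4 genes described by identifier kept their direction in every alternative run for them. All 4 were without overlap between the groups in detrusor, so a kept direction does not test them. The number at an unadjusted p-value under 0.05 (689) was 1150 with all 18 libraries in one model and 536 to 1119 without 1 library. The median of the mucosa-enriched genes reversed to 0.48 without SCI-vehicle replicate 1 and to 0.39 without both libraries, and ranged from -0.52 to 0.48 without 1 library. The cause of these changes was not tested. The interaction count was 0 in every alternative run. Replicate numbers did not pair the SCI-inosine with the SCI-vehicle detrusor libraries (correlations of residuals between libraries of equal number -0.0699, -0.123 and 0.0094). Between detrusor and mucosa of equal number they were 0.0597, 0.00559 and 0.142 in SCI-inosine and 0.0498, 0.111 and 0.233 in SCI-vehicle, of which not every pair exceeded 0.1, and in each of these groups 4 of 6 libraries correlated best with their own number. With the replicate block 0 genes passed the adjusted and 708 the unadjusted threshold (388 higher, 320 lower). The urothelium marker covariate and the gene list alternatives were not run, because no identifier could be paired with a symbol. The covariate of mucosa share, the block by animal for the interaction, other tests and filters for single genes, and the class and mucosa values without single libraries were chosen after seeing the data. Between a log2 CPM of 0 and 2, the 95% interval lay within 2-fold for 0.812% of genes, and for 1.84% without SCI-inosine replicate 2. The parts of depth and of the spread between libraries in this were not separated.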
